A study of Homo sapiens with 6 samples.

Results

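The core machinery of autophagy was followed in KMS-27, an established human multiple myeloma cell line, after Che-1 (the product of AATF) was silenced. The 42 genes were listed by symbol, with no measured value in the rule but with earlier results of these data known, out of 16444 genes in the authors' spike-in comparison and 12075 genes in their FPKM table. All 42 were in the spike-in comparison and 40 in the FPKM table, where ULK2 and MAP1LC3A are not listed. Cells labelled siControl received a control siRNA and cells labelled siChe-1 an siRNA against Che-1, with 3 libraries in each group. Both groups are the same line and differ, per the labels, in the siRNA, and the dose and the time after transfection are not stated by the labels. A single line, whose source is labelled as bone marrow, stands for the disease, and the labels do not name separate cultures. All p-values below thus rest on the spread among these libraries alone, and that spread may be technical.

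Autophagy encloses cytoplasm in a double membrane, the autophagosome, which fuses with the lysosome so that its contents are degraded. The ULK1 kinase complex starts the process, a class III PI3-kinase complex marks the membrane with a phosphoinositide, ATG9 vesicles and ATG2 supply lipid, and a pair of ubiquitin-like conjugation reactions attach proteins of the ATG8 family to the membrane, where cargo receptors bind them. Plasma cells, the cells from which myeloma arises, make large amounts of immunoglobulin and use autophagy beside the proteasome to handle the load, and Che-1 has been linked to stress-induced autophagy in myeloma through inhibition of mTOR.

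The label of the cells and the silencing were checked first. All 8 plasma cell markers examined had an FPKM value, and their summed level ranged from 7310 to 10379 FPKM in siControl and from 9062 to 12734 FPKM in siChe-1, most of it from IGJ, the immunoglobulin joining chain. Of 5 markers each for T cells, monocytes, erythroid cells and stromal cells, only CD3G and HBB had a value in the FPKM table, both below 1 FPKM in every library. The spike-in comparison lists 2, 4, 3 and 2 of them, with summed siControl means of 26.3, 19.7, 10.5 and 26.7 normalized reads, against 445411 for the plasma cell markers. AATF averaged 98.1 ± 12 FPKM over siControl and 15.6 ± 1.33 over siChe-1 (SD, n = 3 each). FPKM, fragments per kilobase of transcript and scaled to the size of the library, measures a gene's share of a library per unit of length. The values given here were rescaled by factors between 0.956 and 1.064 so that the median gene was level between libraries, and the 3 values of a group carry no replicate number. The reads behind the FPKM values are unknown, and the 5 libraries of the spike-in comparison held 19169774 to 21780505 gene reads, as recovered from it.

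Relative to all other genes, autophagy genes were called in both directions. The share called lower was near that of all genes tested, and the share called higher was larger. Whether the set differs from other genes was not tested. Genes for the cargo receptors OPTN and CALCOCO2, for GABARAP, for ATG12, and for WIPI1 and ATG9A made up a larger share of the RNA in siChe-1, while ATG5, ATG4A and RB1CC1 made up a smaller one. Of the 42 genes, 28 had a mean of at least 10 FPKM and were tested with limma on log2(FPKM + 1), together with all other genes above that minimum. At a Benjamini-Hochberg adjusted p under 0.05, 9 were higher in siChe-1, 4 were lower and 15 passed in neither direction. Among all 6285 genes tested, 15.1% were called higher and 15.1% lower. The median change of the 28 was 0.16 on the log2 scale (quartiles -0.13 and 0.34), beside -0.00 for all genes tested (quartiles -0.22 and 0.20). Values of the groups did not overlap in 12 of the 28 genes in the higher direction and in 4 in the lower direction, against 22.5% and 22.8% of all genes tested. With FPKM scaled as deposited, 6 of the 28 were called higher and 5 lower, and the calls over all genes moved from 949 higher and 948 lower to 592 and 1279. With upper-quartile scaling the corresponding numbers were 9 and 3, and 1221 and 713.

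**Figure D1:**
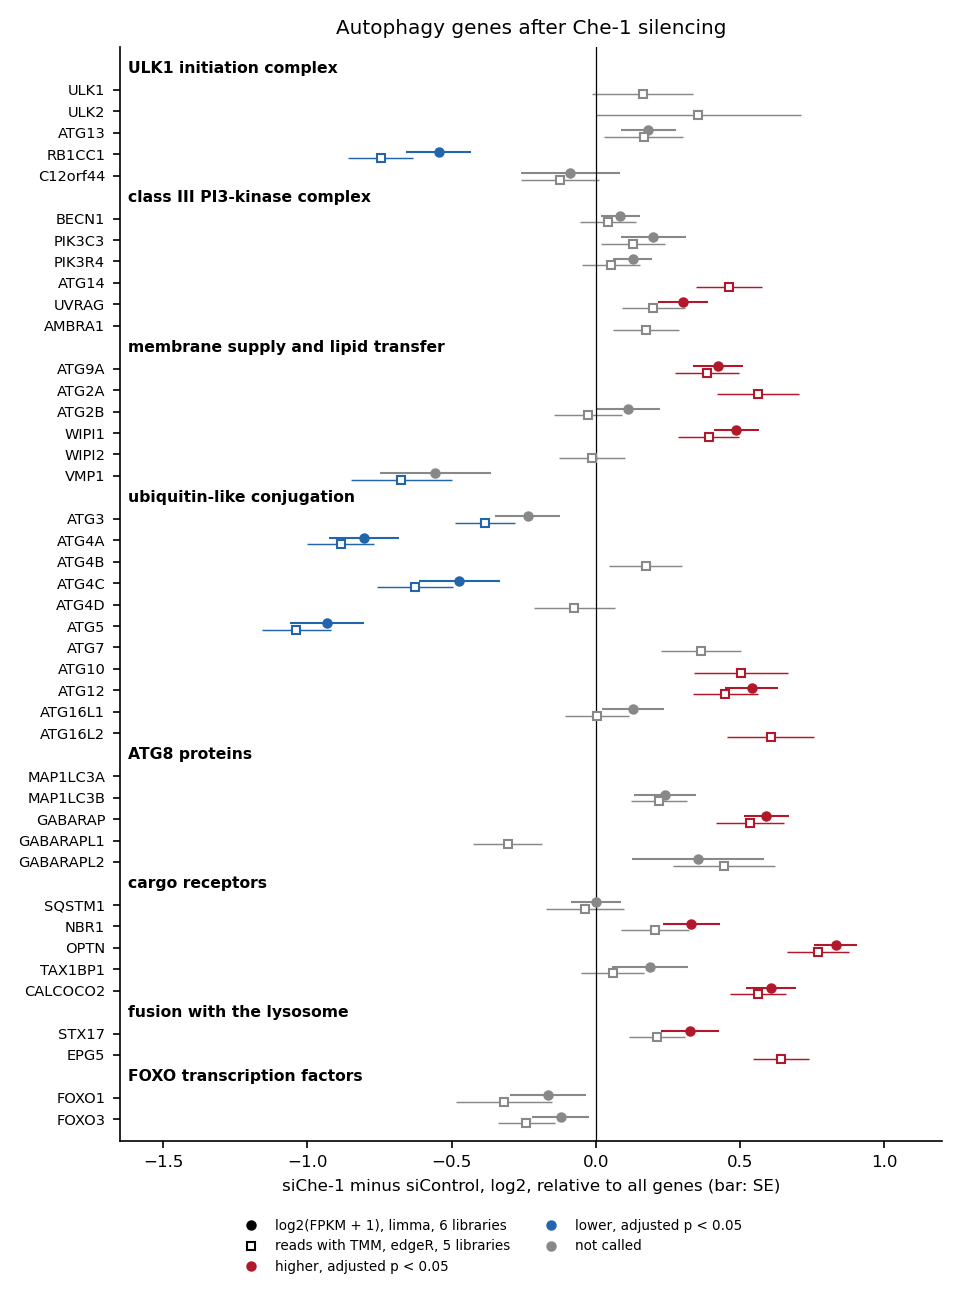
Change of each autophagy gene in siChe-1 against siControl on a log2 scale, relative to all genes, grouped by role, with the standard error as a bar. Filled circles are limma on log2(FPKM + 1) in 6 libraries (28 genes), open squares are edgeR with TMM scaling on reads recovered for 5 libraries (41 genes), and colours mark calls at an adjusted p under 0.05: ATG5 lies farthest to the left at -0.93 and OPTN farthest to the right at 0.83 among the circles.

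A second measure of the same relative change covered 13 more of the genes. Whole reads per library could be recovered from the spike-in comparison for all 42 genes, in the 3 siControl libraries and in siChe-1 replicates 1 and 2. edgeR's quasi-likelihood test with TMM scaling, which again levels the libraries on the bulk of genes, was run on the 41 genes with at least 10 normalized reads on average. It called 11 higher and 6 lower, against 13.5% and 15.3% of the 12468 genes tested. In 10 genes both measures made the same call, and in 0 did they make opposite calls. These 5 libraries are also among the 6 with FPKM, so that the second measure is not a replication. When each library was left out in turn, ATG5, ATG4A, ATG4C, RB1CC1, OPTN and CALCOCO2 kept their call from the reads in all 5 runs, ATG12 (lost without siChe-1 replicate 2) and GABARAP (lost without siChe-1 replicate 1) in 4, WIPI1 (lost without siControl replicate 1 or siChe-1 replicate 1) in 3, and ATG9A (lost without siControl replicate 1 or 3 or siChe-1 replicate 1) in 2. UVRAG, NBR1 and STX17 were called from FPKM only. ATG3 and VMP1 were called lower from the reads only. ATG14, ATG2A, ATG10, ATG16L2 and EPG5 were called higher from the reads and lay below the FPKM minimum. GABARAPL1 at 9.89 FPKM was the gene just below that minimum and ATG4C at 10.8 FPKM the one just above it.

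The windows just before the start of the genes are shown for 4 genes that changed, to let the letters be seen beside the direction. RefSeq (GRCh38.p14) gives a window of 250 bases before the start for 36 of the 42 genes. Of these, 33 begin within 1000 bases of the start of a principal transcript in GENCODE v29. The windows of ATG5, SQSTM1 and AMBRA1 lie farther away and were left out. Printed below are the longest stretches free of any GENCODE exon, from the strand of the gene, with GC boxes (GGGCGG or its reverse complement) in capitals: OPTN at chr10:13099959-13100081 (plus strand), CALCOCO2 at chr17:48830785-48830987 (plus strand) and WIPI1 at chr17:68457514-68457746 (minus strand), all higher in siChe-1, and ATG4C at chr1:62783882-62784131 (plus strand), which was lower.
OPTN: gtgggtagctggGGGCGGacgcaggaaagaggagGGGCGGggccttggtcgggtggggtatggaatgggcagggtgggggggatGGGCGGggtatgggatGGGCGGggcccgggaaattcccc
CALCOCO2: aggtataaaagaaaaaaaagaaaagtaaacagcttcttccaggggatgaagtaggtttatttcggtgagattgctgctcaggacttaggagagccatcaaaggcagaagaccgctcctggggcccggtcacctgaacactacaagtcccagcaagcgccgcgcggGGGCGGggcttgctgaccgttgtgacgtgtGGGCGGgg
WIPI1: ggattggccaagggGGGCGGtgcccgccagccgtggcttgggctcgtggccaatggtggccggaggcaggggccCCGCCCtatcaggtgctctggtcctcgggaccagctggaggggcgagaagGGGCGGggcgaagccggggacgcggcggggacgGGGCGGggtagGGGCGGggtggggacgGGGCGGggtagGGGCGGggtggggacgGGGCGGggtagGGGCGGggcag
ATG4C: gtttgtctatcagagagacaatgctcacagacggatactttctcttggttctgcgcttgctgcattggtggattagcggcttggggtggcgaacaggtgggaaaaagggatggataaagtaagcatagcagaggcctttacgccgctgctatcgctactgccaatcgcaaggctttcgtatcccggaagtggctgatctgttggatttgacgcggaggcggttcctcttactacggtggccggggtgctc

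The stretch of OPTN holds 4 GC boxes, that of CALCOCO2 holds 2 and that of WIPI1 holds 9, while that of ATG4C holds 0. In the full windows WIPI1 had 9, OPTN 4 and CALCOCO2 3, the most of the genes called higher, so that the display is not typical of them. Of the others called higher, ATG9A had 2, GABARAP and NBR1 1 each and ATG12 0. ATG4A, which was lower, had 0. Of the genes tested on FPKM with a usable window under the same symbol, a GC box was found in 6 of the 7 called higher, in 0 of the 2 called lower and in 8 of the 13 not called. C12orf44, tested and not called, has its window under the name ATG101, with 2 GC boxes, and is not in these counts. Over all tested genes the shares lay close together, with a GC box before 73.7% of those called higher, 69.7% of those called lower and 69.6% of those not called. GC boxes were found in 23 of the 33 windows, against 42.3% of all 27305 RefSeq windows of this length. The 27305 were not limited to windows near a principal start, as the 33 were, nor to genes expressed here. The shares over all tested genes above were limited in both ways and are the closer comparison. The same limit holds for the shares of all windows given next. The other motifs searched on both strands were the E-box CACGTG (2 of 33 windows, ATG14 and ATG3, against 6.49% of all), the FOXO motif GTAAACA (1, CALCOCO2, against 2.98%), the NRF1 core GCGCATGC (1, MAP1LC3B, against 2.81%) and CCAAT (11, against 33.0%). The GC box was picked for display after the counts had been seen, and a match is a run of letters, not a site shown to be bound.

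Of the ULK1 initiation complex, 1 of 3 genes tested on FPKM fell, RB1CC1, and 0 rose. The counts of each role given here stand beside the 15.1% of all genes tested that were called in each direction. RB1CC1, also called FIP200, is the large scaffold of the complex and the most abundant of its genes here. On chromosome 8 (hg19, minus strand, 53535018 to 53627026), it measured 55.6, 44.3 and 49.1 FPKM across the siControl libraries (49.7 ± 5.65, SD, n = 3), against 34.8, 29.8 and 36.5 across the siChe-1 libraries (33.7 ± 3.48, SD, n = 3). Every siChe-1 library lay below every siControl library. The gene fell by 0.55 ± 0.11 (SE) in log2(FPKM + 1) (limma adjusted p 0.0108) and was also called lower from the reads. ATG13, the adaptor that joins the kinase to RB1CC1, had a change of 0.18 ± 0.09 (limma adjusted p 0.187), and C12orf44, now named ATG101, one of -0.09 ± 0.17 (limma adjusted p 0.73). The kinases themselves were low: ULK1 had a mean of 2.14 FPKM in siControl and 2.41 in siChe-1. ULK2 had a mean of 24.7 reads in siControl and 13.0 in siChe-1, normalized to the spike-ins. Neither was called from the reads with TMM, at 0.16 ± 0.18 for ULK1 and 0.36 ± 0.36 for ULK2 (SE, log2).

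In the class III PI3-kinase complex 1 gene of 4 tested was called. UVRAG, the subunit that marks the form of the complex at late autophagosomes and endosomes, lies on chromosome 11 (hg19, plus strand, 75526212 to 75855282). It measured 24.2, 20.9 and 21.2 FPKM across the siControl libraries and 29, 25.5 and 27.9 across the siChe-1 libraries, so that the groups did not overlap. The rise was 0.30 ± 0.09 (SE) in log2(FPKM + 1) (limma adjusted p 0.0354). The call was lost when siControl library 2 or 3 or siChe-1 library 1 or 3, in the order in which the table lists them, was left out (limma adjusted p up to 0.115). ATG14, which directs the complex to the forming autophagosome, was below the minimum, averaging 4.99 ± 0.211 FPKM over siControl and 7.74 ± 0.516 over siChe-1 (SD, n = 3 each). From the reads it was higher by 0.46 ± 0.12 (SE, log2, edgeR adjusted p 0.0101), a call lost without siChe-1 replicate 2.

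BECN1, the regulatory core of that complex and its most abundant gene, hardly differed in size between the groups, with 42, 43.7 and 42.7 FPKM across the siControl libraries and 44.9, 46.3 and 45.2 across the siChe-1 libraries. All siChe-1 values lay above all siControl values, and the change of 0.09 ± 0.07 (SE, log2) did not pass (limma adjusted p 0.38). The catalytic subunit PIK3C3 had a change of 0.20 ± 0.11 and its partner PIK3R4 one of 0.13 ± 0.07 (SE, log2), neither past the threshold. AMBRA1, a regulator of BECN1, lay below the FPKM minimum and was not called from the reads, at 0.17 ± 0.11 (SE, log2).

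Among the genes that supply membrane and lipid, 2 of 4 tested were higher. WIPI1, a reader of the phosphoinositide made by the PI3-kinase, lies on chromosome 17 (hg19, minus strand, 66417422 to 66453653). It measured 21.5, 21.7 and 20.3 FPKM across the siControl libraries (21.2 ± 0.757, SD, n = 3), against 32.6, 29.6 and 28.2 across the siChe-1 libraries (30.1 ± 2.23, SD, n = 3). ATG9A, the lipid scramblase of the vesicles that seed the membrane (chromosome 2, hg19, minus strand, 220084102 to 220094361), measured 12, 13.1 and 12.4 FPKM across the siControl libraries and 16, 18.5 and 16.7 across the siChe-1 libraries. In both genes all siChe-1 values exceeded all siControl values. WIPI1 rose by 0.49 ± 0.08 and ATG9A by 0.42 ± 0.09 (SE, log2(FPKM + 1), limma adjusted p 0.0044 and 0.0102).

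WIPI2, the paralog of WIPI1 that recruits ATG16L1, was not called, averaging 8.89 ± 0.493 FPKM over siControl and 8.94 ± 0.388 over siChe-1 (SD, n = 3 each), with -0.01 ± 0.11 (SE, log2) from the reads. Of the lipid transfer proteins, ATG2A, at 1.48 ± 0.244 FPKM in siControl and 2.31 ± 0.418 in siChe-1, was higher by 0.56 ± 0.14 from the reads (SE, log2, edgeR adjusted p 0.0103), a call lost without siControl replicate 3 or siChe-1 replicate 1. ATG2B, more abundant in siControl at 13.6 ± 1.31 FPKM, had a change of 0.11 ± 0.11 from FPKM and of -0.03 ± 0.12 from the reads, and was called by neither. Whether the changes of WIPI1 and WIPI2, or of ATG2A and ATG2B, differ from each other was not tested.

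VMP1, a scramblase of the endoplasmic reticulum that acts where autophagosomes form, had the highest level of this group. Its values spread widely within each group, at 151, 101 and 138 FPKM across the siControl libraries and 105, 69.5 and 90.2 across the siChe-1 libraries, so that the groups overlapped. The change of -0.56 ± 0.19 (SE, log2) did not pass (limma adjusted p 0.0632). It did pass without siControl library 2 of the table, at -0.73 (limma adjusted p 0.0158, between 0.0121 and 0.18 over all alternatives), and from the reads, at -0.67 ± 0.17 (a call lost without siChe-1 replicate 2).

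The 2 largest falls among the 28 tested genes, of ATG5 and ATG4A, were in the ubiquitin-like conjugation systems, where 3 of 6 genes tested were lower and 1 was higher, beside 15.1% of all genes tested in each direction. ATG5, the acceptor to which ATG12 is joined, lies on chromosome 6 (hg19, minus strand, 106632352 to 106773695). It measured 47.3, 35.6 and 37.3 FPKM across the siControl libraries (40.1 ± 6.32, SD, n = 3), against 23.3, 18.4 and 19.7 across the siChe-1 libraries (20.5 ± 2.52, SD, n = 3), a 0.511-fold level with a wide gap between the groups. In log2(FPKM + 1) it fell by 0.93 ± 0.13 (SE, limma adjusted p 0.00258), and only 0.971% of all genes tested had a lower change. ATG12, the modifier joined to ATG5, moved the other way. On chromosome 5 (hg19, minus strand, 115163894 to 115177548), it measured 9.65, 9.53 and 8.65 FPKM across the siControl libraries (9.28 ± 0.548, SD, n = 3), against 13.4, 14 and 14.4 across the siChe-1 libraries (13.9 ± 0.51, SD, n = 3). The groups did not overlap, and the rise was 0.54 ± 0.09 (SE, limma adjusted p 0.00532). ATG16L1, which binds the ATG12-ATG5 conjugate and carries it to the membrane, had a change of 0.13 ± 0.11 (limma adjusted p 0.408).

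ATG4 proteases trim newly made ATG8 proteins and later free them from the membrane, and their genes also differed. ATG4A, on the X chromosome (hg19, plus strand, 107334899 to 107397901), measured 29.2, 24.2 and 28.4 FPKM across the siControl libraries (27.3 ± 2.69, SD, n = 3), against 17.6, 13.0 and 15.1 across the siChe-1 libraries (15.3 ± 2.28, SD, n = 3). ATG4C, on chromosome 1 (hg19, plus strand, 63249777 to 63330941), measured 12.8, 11.5 and 13.5 FPKM across the siControl libraries and 10.8, 7.61 and 8.17 across the siChe-1 libraries. Neither gene had a siChe-1 value above a siControl value. ATG4A fell by 0.80 ± 0.12 (SE, log2(FPKM + 1), limma adjusted p 0.00348). ATG4C fell by 0.47 ± 0.14 (SE, limma adjusted p 0.0388), and this call was lost when siControl library 1 or 3 or siChe-1 library 2 or 3 of the table was left out (limma adjusted p up to 0.132). From the reads it was called with all 5 libraries and without each of them in turn. ATG4B and ATG4D, at 7.14 and 5.63 FPKM in siControl, lay below the minimum and were not called from the reads, at 0.17 ± 0.13 and -0.07 ± 0.14 (SE, log2).

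The E2-like enzyme ATG3, which transfers ATG8 proteins to lipid, was the most abundant gene of the conjugation systems, at 81.3, 90.5 and 101 FPKM across the siControl libraries and 71.8, 73.3 and 85.7 across the siChe-1 libraries. The groups overlapped, and the change of -0.24 ± 0.11 (SE, log2) did not pass on FPKM (limma adjusted p 0.154). From the reads, ATG3 was called lower at -0.38 ± 0.10 (SE, log2), a call lost without siControl replicate 3 or siChe-1 replicate 1. ATG7, the E1-like enzyme of both reactions, was among the lowest of all, averaging 1.37 ± 0.0615 FPKM over siControl and 2.01 ± 0.203 over siChe-1 (SD, n = 3 each), and was not called from the reads at 0.37 ± 0.14 (SE, log2, edgeR adjusted p 0.0653). The E2-like enzyme of the ATG12 reaction, ATG10, was higher from the reads by 0.50 ± 0.16 (SE, log2, edgeR adjusted p 0.0359), but of the 5 ways to leave out a library only the one without siControl replicate 1 kept the call. ATG16L2, the paralog of ATG16L1, was higher by 0.61 ± 0.15 (SE, log2, edgeR adjusted p 0.00983), a call lost without siChe-1 replicate 2.

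**Figure D2:**
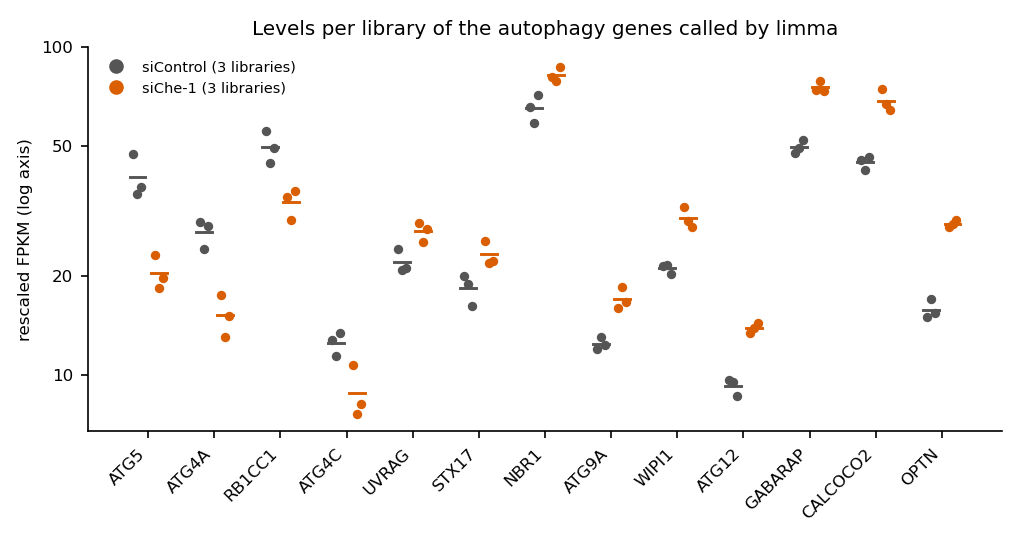
Rescaled FPKM (log axis) of the 13 autophagy genes called by limma, ordered from the largest fall to the largest rise; points are single libraries, 3 of siControl in grey and 3 of siChe-1 in orange, and bars are group means. In ATG5, ATG4A, RB1CC1 and ATG4C all siChe-1 points lie below all siControl points, and in the other 9 genes above them.

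Of the ATG8 family, the ubiquitin-like proteins that coat the autophagosome, 1 of 3 genes tested rose, GABARAP. On chromosome 17 (hg19, minus strand, 7143738 to 7145753), it measured 47.7, 49.3 and 52.1 FPKM across the siControl libraries (49.7 ± 2.27, SD, n = 3), against 73.9, 78.6 and 73.5 across the siChe-1 libraries (75.4 ± 2.82, SD, n = 3). The groups were far apart relative to their spread, and the rise was 0.59 ± 0.08 (SE, log2(FPKM + 1), limma adjusted p 0.00224). MAP1LC3B, which encodes LC3B, the usual marker of autophagosomes, went from 43.8 ± 2.9 to 52.0 ± 6.23 FPKM (SD, n = 3 each), with overlap and a change of 0.24 ± 0.11 that did not pass (limma adjusted p 0.13). GABARAPL2, the most abundant of the family in siControl, had 62.9, 92.7 and 61.1 FPKM there and 87.4, 123 and 70.0 in siChe-1. That spread stood beside a change of 0.35 ± 0.23 that did not pass (limma adjusted p 0.284).

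GABARAPL1 had the opposite sign in this family, averaging 10.4 ± 0.266 FPKM over siControl and 9.34 ± 0.769 over siChe-1 (SD, n = 3 each), without overlap. From the reads its change was -0.31 ± 0.12 (SE, log2), which did not pass (edgeR adjusted p 0.0709). MAP1LC3A had 0 reads in each of the 5 libraries, and a count of 0 allows up to 3 reads in a library by counting error alone. Reads of MAP1LC3B, GABARAPL1 and FOXO3 can be shared with near-identical gene copies, and how the counting treated them is not stated by the labels.

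The cargo receptors, which tether ubiquitinated material to ATG8 proteins, had 3 of 5 genes higher and 0 lower, beside 15.1% of all genes tested in each direction. OPTN, which encodes optineurin, a receptor for damaged mitochondria and bacteria, lies on chromosome 10 (hg19, plus strand, 13142082 to 13180276). It measured 15, 17.1 and 15.4 FPKM across the siControl libraries (15.8 ± 1.11, SD, n = 3), against 28.2, 28.8 and 29.8 across the siChe-1 libraries (28.9 ± 0.779, SD, n = 3), a 1.83-fold level with no overlap. The rise of 0.83 ± 0.08 (SE, log2(FPKM + 1), limma adjusted p 0.000789) was larger than the change of 98.7% of all genes tested. CALCOCO2, which encodes NDP52, a receptor for bacteria and mitochondria (chromosome 17, hg19, plus strand, 46908372 to 46942229), measured 45.4, 42.3 and 46.2 FPKM across the siControl libraries and 74.2, 67.0 and 64.5 across the siChe-1 libraries. It rose by 0.61 ± 0.09 (SE, limma adjusted p 0.00277), again without overlap. NBR1, the receptor for protein aggregates and peroxisomes (chromosome 17, hg19, plus strand, 41322498 to 41363707), measured 65.5, 58.6 and 71.6 FPKM across the siControl libraries and 80.9, 78.7 and 86.8 across the siChe-1 libraries. Its rise of 0.33 ± 0.10 (SE, limma adjusted p 0.0385) was lost when any library but siControl library 3 of the table was left out (limma adjusted p up to 0.13).

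SQSTM1, which encodes p62, was the most abundant of the 40 autophagy genes with FPKM, and its share of the RNA was nearly equal in both groups. It measured 147, 133 and 132 FPKM across the siControl libraries (137 ± 8.27, SD, n = 3), against 141, 134 and 136 across the siChe-1 libraries (137 ± 3.29, SD, n = 3). The groups overlapped throughout. TAX1BP1, a receptor that shares domains with CALCOCO2, had 66.2, 51.4 and 63.4 FPKM across the siControl libraries and 78.3, 60.7 and 67.5 across the siChe-1 libraries, with overlap and a change of 0.19 ± 0.13 (SE, log2, limma adjusted p 0.319).

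Of the genes for fusion with the lysosome, STX17, the SNARE protein of the finished autophagosome (chromosome 9, hg19, plus strand, 102668915 to 102736818), measured 20.1, 18.9 and 16.3 FPKM across the siControl libraries and 25.6, 22.0 and 22.3 across the siChe-1 libraries. All siChe-1 values were higher, and the rise was 0.33 ± 0.10 (SE, log2(FPKM + 1), limma adjusted p 0.0435). The call was kept only when siControl library 1 of the table was left out, and lost without any of the other 5 (limma adjusted p up to 0.135). EPG5, a tether between autophagosome and lysosome, was below the minimum, averaging 5.87 ± 0.537 FPKM over siControl and 9.94 ± 0.541 over siChe-1 (SD, n = 3 each). From the reads it was higher by 0.64 ± 0.10 (SE, log2, edgeR adjusted p 0.000531), with and without each of the 5 libraries.

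The transcription factors FOXO1 and FOXO3, which can switch on autophagy genes, were not called. FOXO3, the more abundant, had 37.8, 42.6 and 35.3 FPKM across the siControl libraries and 32.4, 38.2 and 35.4 across the siChe-1 libraries, with overlap and a change of -0.12 ± 0.10 (SE, log2, limma adjusted p 0.385). FOXO1 went from 13.8 ± 2.34 to 12.2 ± 1.21 FPKM (SD, n = 3 each), a change of -0.17 ± 0.13 (SE, log2, limma adjusted p 0.378).

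Since some genes of a complex or family rose while others fell or were not called, their proportion to each other was read within each library, where no scaling enters. These 6 pairs were chosen after the values had been seen, so the ratios are a description without a test. ATG5 had 4.90, 3.73 and 4.32 times the FPKM of ATG12 in the siControl libraries and 1.74, 1.32 and 1.37 times in siChe-1, a mean of 4.32 ± 0.583 against 1.47 ± 0.229 (SD, n = 3 each). The ratio of ATG5 to ATG16L1, the third protein of that conjugate, went from 3.47 ± 0.555 to 1.61 ± 0.123. In the initiation complex the ratio of RB1CC1 to ATG13 went from 4.60 ± 0.641 to 2.73 ± 0.424. Within the proteases the ratio of ATG4A to ATG4B went from 3.89 ± 0.801 to 2.06 ± 0.645.

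In the other direction, the ratio of GABARAP to GABARAPL1 went from 4.77 ± 0.176 to 8.11 ± 0.685, and that of OPTN to SQSTM1 from 0.116 ± 0.0132 to 0.212 ± 0.00947 (SD, n = 3 each). In none of the 6 pairs did the ratios of the groups overlap. Each pair holds a gene whose own FPKM did not overlap between the groups. As the pairs were picked with these values known, the separation is no result of its own.

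**Figure D3:**
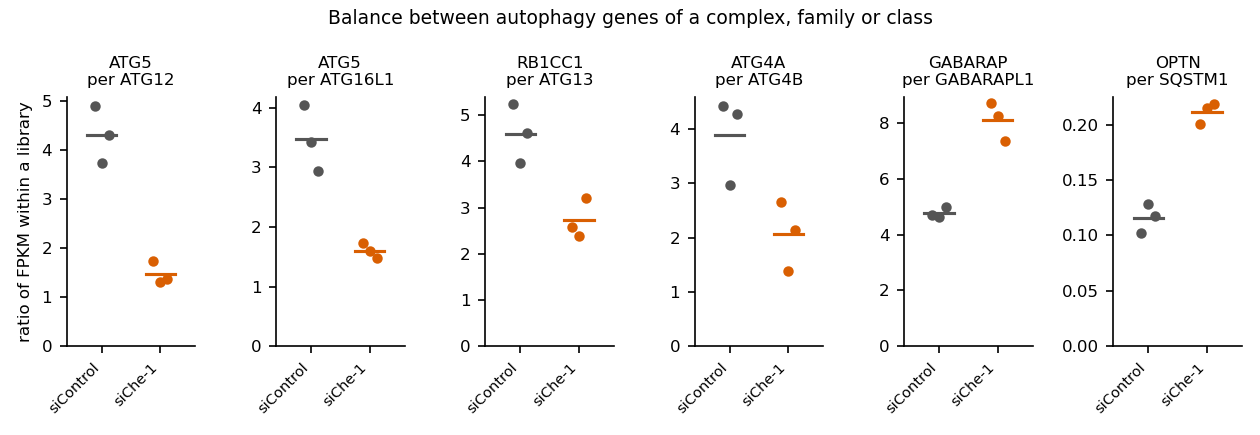
Ratio of the FPKM of a first gene to that of a second within each library (axes start at 0 and differ between panels); points are 3 siControl (grey) and 3 siChe-1 (orange) libraries and bars are group means. The pairs were chosen after the values had been seen. The ratio of ATG5 to ATG12 goes from a mean of 4.32 to 1.47, and in all 6 panels the groups stay apart.

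The table gives FPKM for 63 transcripts of these genes, of which 26, from 22 genes, had a mean of at least 10 FPKM. At transcript level limma called 4 of the 26 higher (those of GABARAP, CALCOCO2 and WIPI1, and NM_021980 of OPTN) and 2 lower (those of ATG5 and ATG4A), against 10.1% and 10% of all 6602 transcripts tested. OPTN has 4 transcripts in the table, all with a higher mean in siChe-1. The main one, NM_021980, had 11.7 ± 1.14 FPKM as deposited in siControl and 19.0 ± 1.13 in siChe-1, and NM_001008212 had 1.92 ± 0.239 and 4.76 ± 0.337 (SD, n = 3 each). The authors' deposited table gives these 2 transcripts log2 changes of 0.70 and 1.31 with q-values of 0.000601 and 0.00411. Its q-values were also under 0.05 for ATG5, ATG4A, GABARAP, CALCOCO2 and WIPI1. The same held for VMP1 (0.000601) and ATG3 (0.0262), which limma on FPKM did not call. No transcript of ATG12, ATG9A, ATG4C, UVRAG, NBR1 or STX17, all called by limma at gene level, had a q-value under 0.05.

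Both transcripts of RB1CC1 had a lower mean in siChe-1. NM_001083617 went from 22.1 ± 2.56 to 12.7 ± 3.45 FPKM as deposited, and NM_014781 from 29.2 ± 9.1 to 19.9 ± 5 (SD, n = 3 each). The authors' deposited table gives them log2 changes of -0.80 and -0.55 with q-values of 0.0484 and 0.0878, and limma on rescaled values called neither (adjusted p 0.0575 and 0.297). The main transcript of SQSTM1, NM_003900, had 126 ± 6.04 FPKM in siControl and 115 ± 2.80 in siChe-1 as deposited, and limma on rescaled values gave it a change of -0.02 (adjusted p 0.878). Division between the transcripts of FOXO3 and of TAX1BP1 was unstable between libraries of 1 group: NM_001206902 of TAX1BP1 had 18.7 ± 13.7 FPKM in siControl (SD, n = 3).

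Against the spike-ins, the RNA controls added to the samples, the autophagy genes were lower together with nearly all genes in siChe-1 replicates 1 and 2, the siChe-1 libraries of that comparison. Replicate 3 is not in it. Spike-in reads numbered 519573, 351573 and 376170 in siControl replicates 1 to 3, and 835414 and 1041244 in siChe-1 replicates 1 and 2. siChe-1 replicate 3 had 379232, within the siControl range. Its gene reads are not known here, so that its level against the spike-ins was not computed, and whether it shares the lower values was not tested. In the authors' deposited table, of the 42 genes, 41 had a mean of at least 10 normalized reads, and all 41 had a negative log2 fold change, as had 98.4% of all genes there. The authors' adjusted p was under 0.05 for 26 of them, all lower, and for 0 in the higher direction, against 63.5% lower and 0.0635% higher among all 12591 genes. The median of the 41 was -1.06 (quartiles -1.32 and -0.84), beside -1.25 for all genes (quartiles -1.51 and -0.97). Whether the spike-ins were added per cell or per amount of RNA is not given here. Fewer cells, less RNA per cell and a different amount of spike-in added to the RNA thus cannot be told apart. Which of them lies behind the lower values was not tested.

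A spike-in factor scales all genes of a library alike, so that the order of the genes is largely carried over from the relative comparison. The genes with the largest falls relative to other genes thus stood lowest on this scale, which is no separate result. The authors' deposited table gives log2 fold changes of -2.26 for ATG5, -2.11 for ATG4A and -1.98 for RB1CC1, and of -0.47 for OPTN, -0.60 for EPG5, -0.67 for CALCOCO2 and -0.69 for GABARAP. The last 4 did not pass the authors' adjusted p, and neither did ATG12 (-0.79), WIPI1 (-0.84) or ATG9A (-0.84). The authors' deposited table puts 30 of the 41 genes above the median of all genes and 11 below it. For SQSTM1 it gives -1.23 (adjusted p 0.00652), for BECN1 -1.19 (adjusted p 0.0114) and for MAP1LC3B -1.01 (adjusted p 0.0297). None of the 9 genes whose share of the RNA rose was higher against the spike-ins. Of all genes there, 98.4% had a negative log2 fold change and 0.0635% were called higher, so that this says little about the 9.

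**Figure D4:**
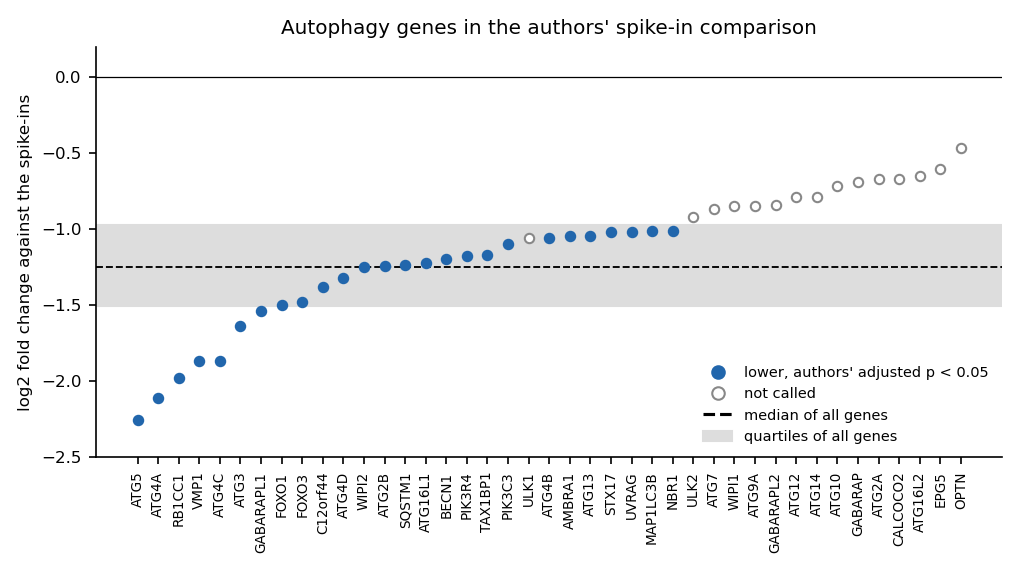
Authors' log2 fold change of siChe-1 against siControl on the spike-in scale for the 41 autophagy genes with a mean of at least 10 normalized reads, in order; filled points are lower at the authors' adjusted p under 0.05, the dashed line is the median of all genes (-1.25) and the grey band their quartiles. All points lie below 0, from -2.26 for ATG5 to -0.47 for OPTN.

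Per library, spike-in-normalized reads showed what stands behind these values. ATG5 had 2476, 2989 and 3390 normalized reads in siControl replicates 1 to 3 and 679 and 557 in siChe-1 replicates 1 and 2. For OPTN the siControl values were 1775, 2866 and 2341 and those of siChe-1 were 1838 and 1531, with overlap. For SQSTM1 the siControl values of 11930, 14934 and 14354 lay far above the siChe-1 values of 7165 and 4515. Of the 41 genes that averaged 10 normalized reads or more, 38 had both siChe-1 values below all siControl values, beside 89.5% of all 12468 such genes. In 0 genes did both siChe-1 values lie above, beside 0.457%.

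A spike-in scale belongs to a whole library, so that these calls largely restate 1 shift. The median of the 41 genes lay at -0.37, 0.15 and 0.19 (log2, against the siControl mean) in the siControl libraries and at -0.94 and -1.26 in siChe-1 replicates 1 and 2, and that of all genes at -0.41, 0.18 and 0.15 and at -1.12 and -1.38. The siControl libraries had 38.8, 56.7 and 57.9 gene reads for each read of a spike-in and siChe-1 replicates 1 and 2 had 22.9 and 19.4. edgeR's quasi-likelihood test on the spike-in scale called 34 of the 41 genes lower and 0 higher, against 84.3% and 0.192% of all 12468 genes. At an unadjusted p under 0.05 it had 35 genes, all lower, beside 85.4% lower and 0.201% higher of all genes. Without siChe-1 replicate 2 it called 7 of the 41 lower and 0 higher, beside 22.4% and 0.0397% of all genes in that run.

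The rest of the pathway was described from 4 further lists, with 47 genes in the FPKM table. Of the 38 that reached the minimum, 3 were higher, 4 lower and 31 not called, with a median of 0.02, beside 15.1% of all genes tested in each direction. RHEB, the small GTPase that activates mTORC1, had the smallest p of all of them, with a mean of 262 FPKM in siControl and 94.3 in siChe-1 and a fall of 1.46 ± 0.12 (SE, log2(FPKM + 1), limma adjusted p 0.000618). In its list of upstream kinases and their regulators, PRKAB2, a subunit of AMP-activated kinase, rose by 0.57 ± 0.08 (limma adjusted p 0.0023), and the other 6 genes tested, MTOR among them at 0.16 ± 0.07 (limma adjusted p 0.133), were not called.

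Among early factors, 1 of 10 genes tested was higher and 1 lower. RAB1A, a GTPase of transport from the endoplasmic reticulum, fell by 0.70 ± 0.09 (SE, log2(FPKM + 1), limma adjusted p 0.0023). KIAA0226, which encodes Rubicon, an inhibitor of the UVRAG form of the PI3-kinase complex, rose by 0.61 ± 0.11 (limma adjusted p 0.00644). Of 11 further receptors and their regulators tested, STBD1, a receptor for glycogen, was lower by 0.66 ± 0.07 (limma adjusted p 0.00115) and the other 10 were not called. TEX264, a receptor for the endoplasmic reticulum, had the next smallest p, at -0.63 ± 0.21 (limma adjusted p 0.0536). From the reads with TMM, 0 of the 14 genes of this list were called lower, so that STBD1 was not, and 1 was called higher. Against the spike-ins, STBD1 did not pass either (log2 fold change -2.03, authors' adjusted p 0.247). Of 9 tethering and fusion genes tested, YKT6, a SNARE protein of the autophagosome, was lower by 0.36 ± 0.07 and VPS11, a subunit shared by the HOPS and CORVET tethers, was higher by 0.34 ± 0.08 (limma adjusted p 0.00805 and 0.0181). From the reads with TMM, 0 of the 12 genes of that list were called higher, so that VPS11 was not, and 1 was called lower.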

How the data were processed

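RNA of KMS-27 cells was extracted with Qiazol and treated with DNase, and libraries were made from 500 ng with a strand-marking kit for total RNA that removes ribosomal RNA, per the labels' protocols. The authors used TopHat, Cufflinks, Cuffdiff, HTSeq and DESeq2 on hg19, per the submitters' processing notes. Versions, the role of each tool and whether counting used the strand are not given in the sources used here, so that overlapping genes on opposite strands may share reads. Samples were grouped by their titles. The members and gene lists were chosen with earlier results of these data known.

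The deposited tables hold, per the file headers, raw counts of spike-in reads per library, a signal per gene (read counts divided by spike-in size factors and averaged over a group by the authors) with the authors' fold ratio, its log2, a p-value and its adjusted form, and the authors' FPKM per transcript and library with a log2 change and a q-value. Transcripts on assembled chromosomes were summed to 12075 genes. Genes with a mean of at least 10 FPKM (6285) were rescaled by the median of ratios and tested as log2(FPKM + 1), which understates the change of low genes, with limma 3.58.1 (mean-variance trend). The deposited signal was matched to whole reads in 5 libraries (to a relative tolerance of 8e-15) for 16321 of 16444 genes (99.3%), all 42 members among them, and these reads were tested with edgeR 4.0.16, on the authors' spike-in scale and with TMM. The remaining 123 genes are abundant and hold 19.7% of the siControl and 18.8% of the siChe-1 normalized reads. The authors' own adjusted p was counted where a gene's mean reached 10. All tests were two-sided with Benjamini-Hochberg adjustment over all features tested, at 0.05. limma on genes and edgeR with TMM and on the spike-in scale were tried on simulated data first. DESeq2, limma on transcripts and the fits with a replicate block were not. The SE printed for changes from the reads is the size of the log2 change divided by the square root of edgeR's F statistic. It is thus not the same quantity as the SE from limma. R 4.3.3 and DESeq2 1.42.0 (as an alternative) were used. Full values are given for each gene called on FPKM and the most abundant gene of each role, and for the wider lists for the 2 genes with the smallest p. MTOR, the ratios, the transcripts and the genes below the FPKM minimum were added after their values were seen. Starts in the FPKM table count from 0 and are given here from 1. With 3 libraries a group, or 3 and 2, precision is limited by the spread between libraries.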

Additional observations from a re-analysis of the deposited data

How the results depend on the processing

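Over 14 alternatives of the FPKM comparison (pseudocount, minimum, scaling, trend, reads with TMM, leaving out each library), 6 to 11 genes were higher and 3 to 6 lower. ATG5, ATG4A, RB1CC1, ATG12, ATG9A, WIPI1, GABARAP, CALCOCO2 and OPTN were called in all 14. ATG4C was lost in 5, UVRAG in 9, NBR1 in 10 and STX17 in 11, while VMP1 was called in 3 and ATG3 in 1. Of the genes below the main minimum, ATG14 and EPG5 were called higher on FPKM with a minimum of 1 FPKM and with none. ATG7 was called higher on FPKM with no minimum only. The sign of small changes that were never called turned for SQSTM1 (-0.061 with a minimum of 1 FPKM, -0.093 with FPKM as deposited, -0.076 without a minimum or with ratios over all genes, -0.038 with TMM, and -0.031 to 0.046 when 1 library was left out), for BECN1 (-0.0064 with FPKM as deposited), for ATG2B (-0.027 with TMM) and for C12orf44 (-0.24 to 0.062 when 1 library was left out). FPKM as deposited puts the median of all genes at -0.09 and upper-quartile scaling at 0.06. Member transcripts called higher numbered 7 with a minimum of 1 FPKM, where more transcripts are tested.

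On the spike-in scale 34 genes were lower with edgeR, 38 with DESeq2 and 33 without a minimum count, and leaving out 1 library gave 7 (without siChe-1 replicate 2) to 41. Rescaling the same reads on genes removes the shared shift by construction: TMM and the median of ratios each gave 11 higher and 6 lower. The replicate numbers of siControl and siChe-1 pair only 2 libraries each, which share a number and nothing else on record (correlation of deviations 0.28 and 0.27, mirror images in a group of 2). With the replicate number as a block, edgeR called 0 of the autophagy genes higher and 0 lower on the spike-in scale (0.00802% and 0.465% of all genes), with 6 at an unadjusted p under 0.05, and the block with TMM, added after seeing the data as were the runs of TMM without each library, gave 12 higher and 6 lower. No paired analysis was possible on FPKM because its values carry no replicate numbers. The authors' calls were 26 with a mean of at least 100 or no minimum. Of the genes tested on reads, ULK2 (a mean of 20 normalized reads), ATG10 (206) and ATG7 (285) had the fewest.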
